A study of Gallus gallus with 5 samples.

Results

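LMO2 and genes of the red blood cell lineage were followed across 5 cultures of DT40, a chicken B cell line derived from a lymphoma of the bursa. The set names 8 genes: LMO2, its partners TAL1, GATA1, GATA2 and LDB1, the adult globins HBA1 and HBBA, and the transferrin receptor TFRC. A probe entered the set when the RefSeq accession printed on the array belonged to one of these genes under a current or an older symbol. This gave 12 probes of 43603, from 7 of the 8 genes. GATA1 had no entry in the gene table used for naming and was not analysed here. The set was chosen by earlier results on these same arrays, the LMO2 levels above all, so its values are given as a description.

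The arrays were single-colour Agilent expression arrays, hybridised with Cy3-labelled copies of 100 ng of total RNA, with 1 array per culture. WT was the parental DT40 line. DKO lacked both H2A.Z isoforms, and the other lines were DKO cells that stably express H2A.Z.1 (DKO+H2A.Z.1) or a mutant of it named 5KR-H2A.Z (DKO+5KR-H2A.Z) or H2A-H2A.Z (DKO+H2A-H2A.Z). All 5 cultures received 2 µg/ml tetracycline for 72 hours, which the protocol gives as the means of silencing an H2A.Z.1 transgene that the drug represses. The study asked about the amino-terminal tail of H2A.Z, a variant of histone H2A found at promoters. The labels of the DKO array disagree: its title and source name say DKO, whereas its description and genotype repeat the wording of the line with H2A.Z.1, and the name DKO used for it follows the title. WT, DKO and DKO+H2A.Z.1 shared a slide, and the mutant lines shared a second one, so across slides the line and the slide cannot be told apart.

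With 1 array per line there is no replicate error, and no test was made. Levels are log2 of the processed signal minus the 75th percentile of that array, and "±" gives the error that the scanner software assigns to a spot, which leaves out the variation between cultures. A difference counts as 2-fold when it reaches 1 on the log2 scale. Signal passed the software's test for being well above background at 66.5% of spots in DKO to 69.8% in WT, and no spot was saturated. The 2 probes of H2AFZ, the H2A.Z.1 gene, were 24.8- to 99.0-fold lower in the 4 derived lines than in WT, and stayed well above background there. Neither probe settles which label of the DKO array is right, because DKO+H2A.Z.1 was as low.

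LMO2 is a small protein of LIM domains that does not bind DNA. It joins the DNA-binding factors TAL1, with an E protein partner, and GATA1 or GATA2 to the adaptor LDB1, and this complex binds regulatory regions of globin and other erythroid genes. In blood formation LMO2 is needed for stem cells and for red cells, and it is a known oncogene of T cell leukaemia when it is switched on out of place. In human B cells LMO2 is a marker of the germinal centre.

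LMO2 was highest in WT and lower in every derived line. Its only probe, A_87_P057918, read -1.94 in WT, -3.80 in DKO, -4.23 in DKO+H2A.Z.1, -3.20 in DKO+H2A-H2A.Z, with -5.50 in DKO+5KR-H2A.Z. The processed signals behind these levels were 380 in WT, 80.2 in DKO, 83.0 in DKO+H2A.Z.1, 161 in DKO+H2A-H2A.Z, with 29.7 in DKO+5KR-H2A.Z, all well above background. The last of these lay within the range of the dim HBA1 probe, 13.6 to 41.5. The folds against DKO+5KR-H2A.Z thus rest on a dim signal. WT stood apart at the top, DKO and DKO+H2A.Z.1 lay close together in the middle, and DKO+5KR-H2A.Z stood alone at the bottom, 11.8-fold under WT. In bulk RNA, fewer cells with a transcript and less of it per cell cannot be told apart.

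On the first slide LMO2 was 3.63-fold lower in DKO than in WT (-1.86 ± 0.21). Set against WT, DKO+H2A.Z.1 had 4.90-fold less (-2.29 ± 0.21). The line with H2A.Z.1 was no nearer to WT than DKO was, and the difference between those 2 lines, -0.43 ± 0.21, was 2 scanner errors wide. It changed sign, to 0.12, when the arrays were scaled on spike-in probes. On the second slide LMO2 was 4.93-fold lower in DKO+5KR-H2A.Z than in DKO+H2A-H2A.Z (-2.30 ± 0.25), with no change of slide between them. With normexp that difference was -1.10.

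Across slides, DKO+5KR-H2A.Z was 2.41-fold below DKO+H2A.Z.1 and 3.26-fold below DKO, and with normexp both were under 2-fold (-0.49 and -0.91). DKO+H2A-H2A.Z was 2.04-fold above DKO+H2A.Z.1, 1.51-fold above DKO and 2.40-fold below WT. The first of these sat at the 2-fold line and reached it in 3 of 7 alternatives, with 0.61 under normexp as the lowest. In 1 of these 3, keeping spots marked as outliers, every LMO2 value stayed as in the main setting. That alternative therefore repeats the main result in each count out of 7 given here. The order, from WT down through DKO+H2A-H2A.Z, then DKO, then DKO+H2A.Z.1, to DKO+5KR-H2A.Z, held in 6 of 7 other ways of processing the arrays, and scaling on spike-in probes exchanged DKO and DKO+H2A.Z.1. WT was highest and DKO+5KR-H2A.Z lowest in 7 of 7. The distance from top to bottom ran from 4.58-fold with normexp, a background correction that pulls dim spots together, to 13.7-fold with the spike-in probes.

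**Figure D1:**
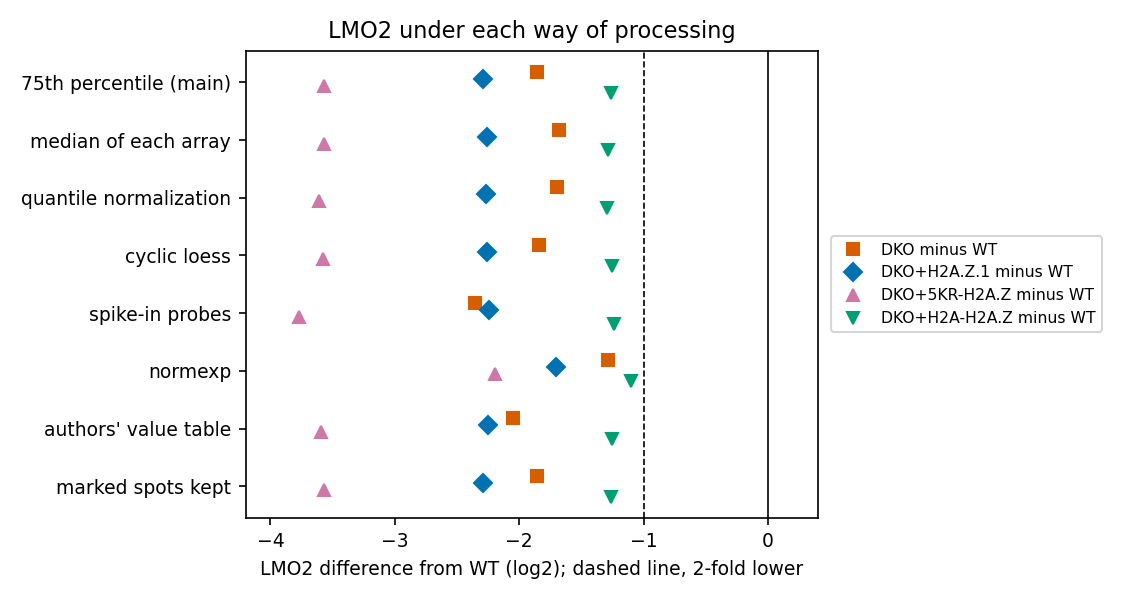
Log2 level of the LMO2 probe in the 5 lines under the main setting and 7 alternatives, drawn as the difference from WT. All 4 derived lines lie below WT under each setting, and DKO+5KR-H2A.Z is lowest under each, at -3.57 under the main setting.

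Among the DNA-binding partners, TAL1, a helix-loop-helix factor needed for blood formation, was not well above background on any array. Its probe A_87_P008880 lay between -8.95 and -7.36, and A_87_P252078 between -9.31 and -8.72. No fold is given for either, and they say only that TAL1 signal was not separated from background here.

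GATA2, the zinc finger factor of blood stem cells and early progenitors, was measured on every array. Probe A_87_P054436 read -4.16 in WT, -3.75 in DKO, -4.30 in DKO+H2A.Z.1, -4.06 in DKO+H2A-H2A.Z, with -3.99 in DKO+5KR-H2A.Z. All 5 lines lay within 0.55, with DKO at the top. The difference between DKO and WT was 0.41 ± 0.21, and it was -0.09 on the spike-in scale.

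LDB1, the adaptor through which LMO2 complexes on distant sites are brought together, was read by 2 probes that kept the same picture. A_87_P037944 read -1.73 in WT, -1.32 in DKO, -1.70 in DKO+H2A.Z.1, -1.99 in DKO+H2A-H2A.Z, with -1.90 in DKO+5KR-H2A.Z. A_87_P080971 read -3.14, -2.77, -3.05, -3.31 and -3.34 in WT, DKO, DKO+H2A.Z.1, the line with 5KR-H2A.Z and the line with H2A-H2A.Z. DKO was highest on both probes, by 0.41 and 0.36 over WT, and on the spike-in scale these differences were -0.08 and -0.13. Neither probe put a line 2-fold from another.

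HBA1, the alpha-A globin of adult hemoglobin, gave a dim signal on probe A_87_P189073, with levels of -5.41 in WT, -5.93 in DKO, -6.84 in DKO+H2A.Z.1, -5.74 in DKO+H2A-H2A.Z, with -5.02 in DKO+5KR-H2A.Z. The processed signals were 13.6 to 41.5, near the lower limit of what the software separates from background. DKO+H2A.Z.1 was lowest, 2.69-fold below WT (-1.43 ± 0.31), and with normexp this difference shrank to -0.46. The second probe, A_87_P058996, was not well above background on any array.

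HBBA, the beta-A globin that pairs with it, was as dim. Probe A_87_P056711 read -5.70 in WT, -6.38 in DKO, -6.40 in DKO+H2A.Z.1, -5.19 in DKO+H2A-H2A.Z, with -5.92 in DKO+5KR-H2A.Z. DKO and DKO+H2A.Z.1 shared the bottom, and DKO+H2A-H2A.Z, on the other slide, was 2.29-fold above DKO and 2.32-fold above DKO+H2A.Z.1. Under normexp those differences were 0.13 and 0.44. The other two probes, A_87_P009554 and A_87_P274543, were not well above background on any array.

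The globins did not follow the order of LMO2. The line with the least LMO2, DKO+5KR-H2A.Z, had the highest HBA1 level of the 5, and the HBBA level was highest in DKO+H2A-H2A.Z. These top levels lay 0.39 ± 0.24 (HBA1) and 0.51 ± 0.24 (HBBA) above WT. Both differences were across slides, under 2-fold and on dim signals.

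TFRC, the receptor that carries transferrin-bound iron into dividing cells and, in great amounts, into red cell precursors, read -2.14 in WT, -1.59 in DKO, -2.21 in DKO+H2A.Z.1, -2.26 in DKO+H2A-H2A.Z, with -2.12 in DKO+5KR-H2A.Z on A_87_P008923. DKO alone stood apart, 0.55 ± 0.20 above WT, while the other lines lay within 0.14 of each other. On the spike-in scale the difference between DKO and WT was 0.05.

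**Figure D2:**
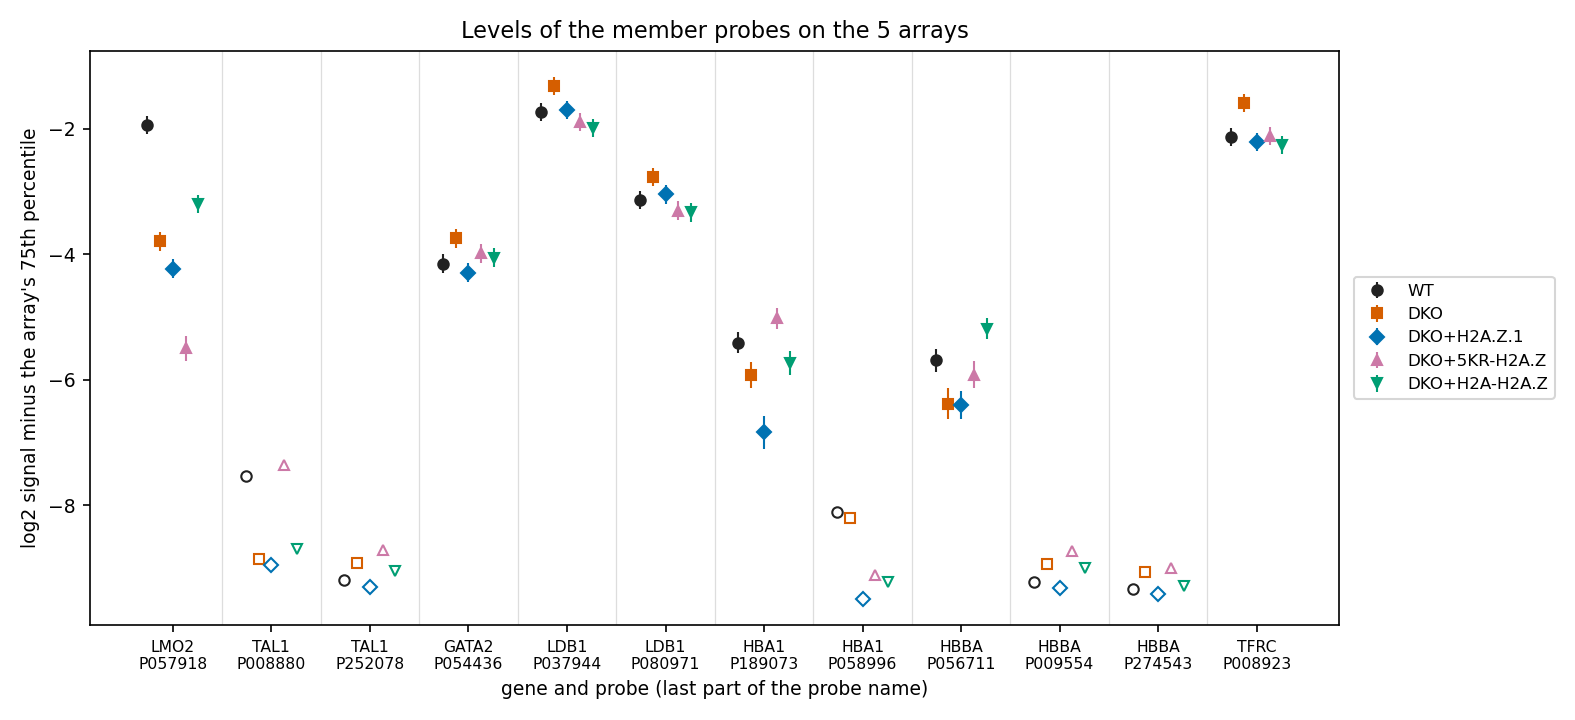
Levels of the 12 probes on the 5 arrays (log2 of the signal minus the 75th percentile of the array). Filled marks are well above background, open marks are not, and bars are scanner errors. The LMO2 levels spread over 3.57, while GATA2, LDB1 and TFRC stay within 0.67.

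Of the 12 probes, 7 were well above background on every array, beside 27800 of all 43603, and 5 on none. In DKO against WT, 1 of these 7 was at least 2-fold apart, LMO2, where 17.2% of all probes measured were. Between DKO+H2A.Z.1 and DKO the count was 0 of 7, against 12.7% of all probes. Between DKO+H2A.Z.1 and WT it was 2 of 7, LMO2 and HBA1, against 7.02%. Between the mutant lines it was 1 of 7, LMO2, against 4.73%. Against DKO+H2A.Z.1, across slides, DKO+5KR-H2A.Z differed at 2 of 7 (LMO2 and HBA1, all probes 3.57%) and DKO+H2A-H2A.Z at 3 of 7 (LMO2, HBA1 and HBBA, all probes 3.76%). Across slides against WT, the count was 1 of 7, LMO2, for DKO+5KR-H2A.Z (all probes 8.07%) and 1 of 7, again LMO2, for DKO+H2A-H2A.Z (5.34%). Against DKO it was 1 of 7, LMO2, for DKO+5KR-H2A.Z (9.99%) and 1 of 7, HBBA, for DKO+H2A-H2A.Z (15.2%). LMO2 is among the probes counted in 8 of these 10 comparisons, and the globins were picked with these results known, so nothing is read from the counts against the background.

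GATA2, LDB1 and TFRC were each highest in DKO, and so was the array's middle. The median of all named genes was 0.15 higher in DKO than in WT, and -0.35 on the spike-in scale, the same shift that moved these members. Of the genes at least 2-fold apart in that comparison, 72.5% were lower in DKO. That share was 91.4% on the spike-in scale and 58.1% when each array was centred on its median. Relative to the median of all genes, LMO2 in DKO lay far below, and GATA2, LDB1 and TFRC slightly above.

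LMO2 was 1 of 14 genes, of the 4110 well above background on every array, that were at least 2-fold lower than WT in all 4 derived lines (0.341%), and over single probes the share was 0.392%. Only 4 of the 4110 genes (0.0973%) had the order of LMO2 and a range of at least 2-fold, and LMO2 was one of them. That order is the one under the main setting, and scaling on spike-in probes exchanged DKO and DKO+H2A.Z.1. A range as wide as that of LMO2 was reached by 18 of 4110 genes (0.438%), LMO2 included. LMO2 was chosen for its levels on these arrays, and the order and range were taken from LMO2 itself. The small shares therefore follow from the choice, and nothing is read from them.

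The genes whose pattern lay nearest to that of LMO2 were found from the root-mean-square distance between levels over the 5 arrays, each gene centred on its own mean. A gene that did not vary would lie 1.17 from LMO2, and the median distance of the 4484 genes compared was 1.21. CYGB, cytoglobin, a globin of tissues other than red cells, lay at 0.354 and was well above background on all 5 arrays. Its levels were -1.99 in WT, -3.71 in DKO, -3.87 in DKO+H2A.Z.1, -2.93 in DKO+H2A-H2A.Z, with -4.53 in DKO+5KR-H2A.Z. It thus ran in the order of LMO2, with a narrower range, 5.80-fold between WT and DKO+5KR-H2A.Z.

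SSX2IP, a protein of the centrosome and of cell junctions, lay at 0.446, with its other probe at 0.492. It read -4.30 in WT, -5.95 in DKO, -5.94 in DKO+H2A.Z.1, -5.15 in DKO+H2A-H2A.Z, with -6.57 in DKO+5KR-H2A.Z. PPP1R19L lay at 0.590, with levels of 3.17 in WT, 2.41 in DKO, 1.54 in DKO+H2A.Z.1, 2.85 in DKO+H2A-H2A.Z, with 1.41 in DKO+5KR-H2A.Z. Both were above background on every array, and in both WT was highest and DKO+5KR-H2A.Z lowest. With normexp the SSX2IP difference between DKO and WT shrank to -0.44.

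The other 7 of the 10 nearest genes were dim on 3 or 4 of the 5 arrays, so the lower part of their pattern is bounded by background. YIPF7 (0.346) and LGALS1B (0.547), a galectin, were above background on 2 arrays. CCR2, a chemokine receptor (0.485), SIGIRR, a member of the interleukin-1 receptor family (0.490), SALL1, a zinc finger factor (0.534), TOX3, an HMG-box protein (0.584), and VEGFD, a lymphatic growth factor (0.598), were above background on 1 array. The other probes lay 1.55 from LMO2 for YIPF7, 1.26 to 1.30 for SIGIRR, 1.24 to 1.26 for SALL1 and 1.26 to 1.27 for VEGFD, farther than a gene that did not vary. They lay 0.78 to 1.53 away for TOX3, 0.85 for CCR2 and 0.74 for LGALS1B.

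**Figure D3:**
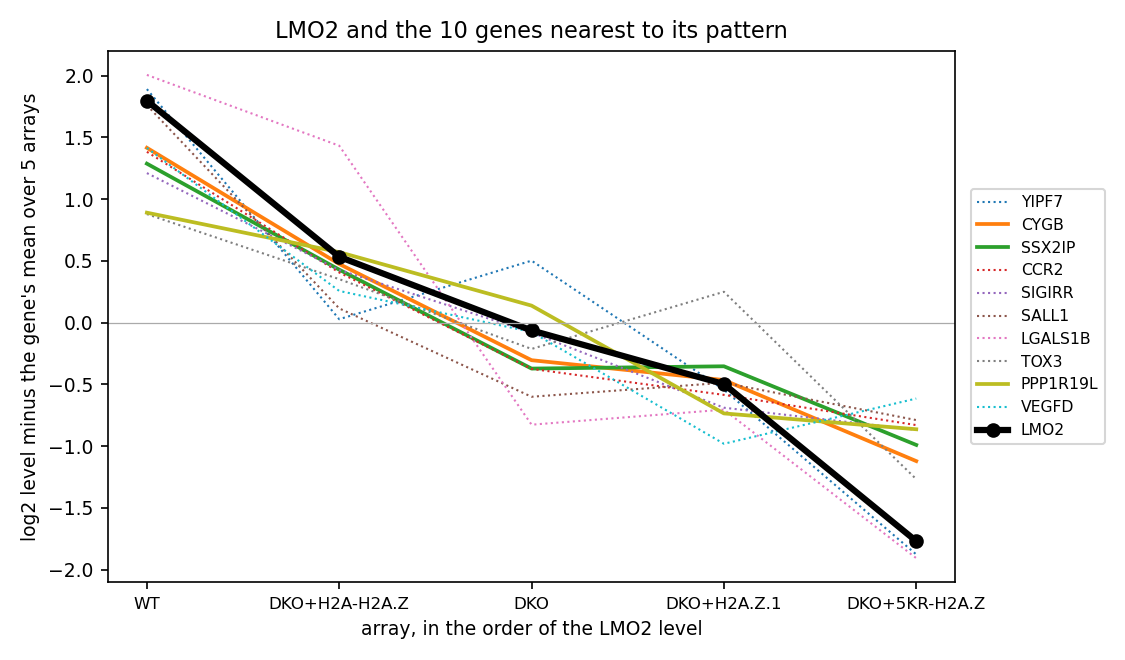
Levels over the 5 lines, each gene centred on its own mean (log2), for LMO2 and the 10 genes whose pattern was nearest to it. CYGB, at a distance of 0.354, is the nearest of those well above background on all 5 arrays.

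Genes that neighbour LMO2 in the RefSeq table of assembly GRCg7b did not share its pattern. The nearest measured gene on one side, CAPRIN1, which codes for an RNA-binding protein and has 1 gene between it and LMO2, spanned 0.21 over the 5 arrays. NAT10, an RNA acetyltransferase with 3 genes between, spanned 0.54. On the other side FGF3, a growth factor with 18 genes between, spanned 0.57, and FGF4 was not well above background on any array.

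Outside the 8 genes, 6 lists of the pathway were read in the same way, each gene on its probe of highest mean. Of the LMO2 complex and LIM-only family, 14 of 23 names had a probe. In DKO against WT, 1 of 12 genes counted was higher by 2-fold or more and 1 was lower, with a median of 0.35, beside 4.2% and 11.1% of all genes and a median of 0.15. ID3, an inhibitor of E proteins, was 3.45-fold higher on 1 of its 2 probes, at -5.11 in WT and -3.33 in DKO. GATA3, the T cell member of the GATA family, was above background in WT and not in DKO, at least 1.52-fold lower, and its difference was -0.11 with normexp.

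LMO4, the LIM-only relative of LMO2, was bright in all lines, at 2.22 in WT, 1.66 in DKO, 1.57 in DKO+H2A.Z.1, 2.21 in DKO+H2A-H2A.Z, with 1.33 in DKO+5KR-H2A.Z. As with LMO2, the value of DKO+5KR-H2A.Z was the lowest, but no line was 2-fold from another. Between the mutant lines, 1 of 11 genes counted in this list was at least 2-fold higher in DKO+5KR-H2A.Z and 0 lower, beside 4.73% of all probes in either direction. The gene was CBFA2T3, highest of the 5 lines in DKO+5KR-H2A.Z. It read -3.10 there and -4.54 in DKO+H2A-H2A.Z, 2.71-fold apart, and 2 of 3 probes passed 2-fold. The E protein genes TCF3 and TCF12, whose products pair with TAL1, differed between DKO and WT by 0.00 and 0.46, and RUNX1, a factor of blood stem cells, by 0.37. From DKO to DKO+H2A.Z.1, 1 of 12 genes of the list was higher and 1 lower, beside 8.1% and 2.63% of all genes. These were RUNX1T1, a corepressor higher in DKO+H2A.Z.1 by at least 2.31-fold, and ID3, lower by 1.11 on the log2 scale. With normexp RUNX1T1 was 0.20 and ID3 -0.82, and ID3 was -0.56 on the spike-in scale, all under 2-fold.

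The 26 names of erythroid transcription factors gave 16 genes with a probe. Of these, 13 were well above background on every array, beside 4110 of the 5382 named genes. GFI1B, a repressor of red cell and platelet precursors, was not well above background on any. In DKO against WT the median was -0.02. There, 1 of 14 was at least 2-fold higher and 0 lower, beside 4.2% and 11.1% of all genes. The gene was THRB, a thyroid hormone receptor, at least 8.94-fold higher in DKO and 3.53-fold lower again in DKO+H2A.Z.1, a difference of -0.93 with normexp. MYB, a factor of immature blood cells, differed by 0.19 between DKO and WT. SPI1, which B cells share with the myeloid lineage, differed by -0.48.

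The 16 names of other globins and red cell chromatin genes gave 8 genes with a probe outside the set. The embryonic globins HBZ and HBE1 were not well above background on any array. HBE was well above background on 4 of 5 arrays, at -6.85 to -6.36 there, and HBBR on 1. In DKO against WT the median was 0.41. There, 1 of 5 genes counted was at least 2-fold higher and 1 lower, beside 4.2% and 11.1% of all genes. The lower one was CYGB, 3.29-fold, and the higher one MB, myoglobin, 2.34-fold. MB was under 2-fold on the spike-in scale (0.73) and with normexp (0.65). HBAD, the alpha-D globin, read -3.07 in WT, -2.96 in DKO, -3.19 in DKO+H2A.Z.1, -2.72 in DKO+H2A-H2A.Z, with -2.48 in DKO+5KR-H2A.Z, so no line was 2-fold from another.

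The 21 names of heme synthesis and breakdown gave 6 genes with a probe. All 6 were well above background on every array, beside 4110 of the 5382 named genes. HMOX1, heme oxygenase, which breaks heme down, was 2.65-fold higher in DKO than in WT on 2 of 2 probes, and was the only 1 of 6 past 2-fold. On the spike-in scale it was 0.91, under 2-fold. Of all genes, 4.2% were at least 2-fold higher in DKO than in WT and 11.1% lower. The list's median was 0.47. ALAS1, which starts heme synthesis, was 0.68 higher in DKO, and FECH, which inserts the iron, 0.57 higher. The spike-in scale lowers each of these differences by the shift that took the median of all genes from 0.15 to -0.35. From DKO to DKO+H2A.Z.1, 0 of 6 were 2-fold apart, where 8.1% of all genes were higher and 2.63% lower. The list's median there was -0.37.

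The 25 names of iron uptake, storage and sensing gave 10 genes with a probe outside the set. In DKO against WT the median was 0.44. There, 1 of 8 counted was at least 2-fold lower and 0 higher, beside 11.1% and 4.2% of all genes. The lower gene was SLC11A2, a transporter that moves iron out of endosomes after TFRC has brought it in. SLC11A2 read -2.42 in WT, -6.13 in DKO, -2.98 in DKO+H2A.Z.1, -2.65 in DKO+H2A-H2A.Z, with -2.97 in DKO+5KR-H2A.Z. Unlike LMO2, it was low in DKO alone, 13.0-fold under WT, and 8.87-fold higher in DKO+H2A.Z.1 than in DKO. SLC11A2 was read by 1 probe, well above background on every array. Its DKO level lay below that of the dim HBA1 probe in DKO, -5.93, so both folds rest on a dim signal.

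Of the red cell surface and membrane skeleton genes, 16 of 25 names had a probe, and 5 were not well above background on any array: KIT, RHAG, GYPC, CA2 and AQP1. In DKO against WT the median was 0.07. There, 1 of 10 was at least 2-fold higher and 0 lower, beside 4.2% and 11.1% of all genes. EPB41, the skeleton protein 4.1, was 2.62-fold higher in DKO, on 2 of 3 probes, and under 2-fold on the spike-in scale (0.89). SLC4A1, the anion exchanger of the red cell membrane, was well above background on every array at a low level, -5.13 in WT and -5.53 in DKO.

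**Figure D4:**
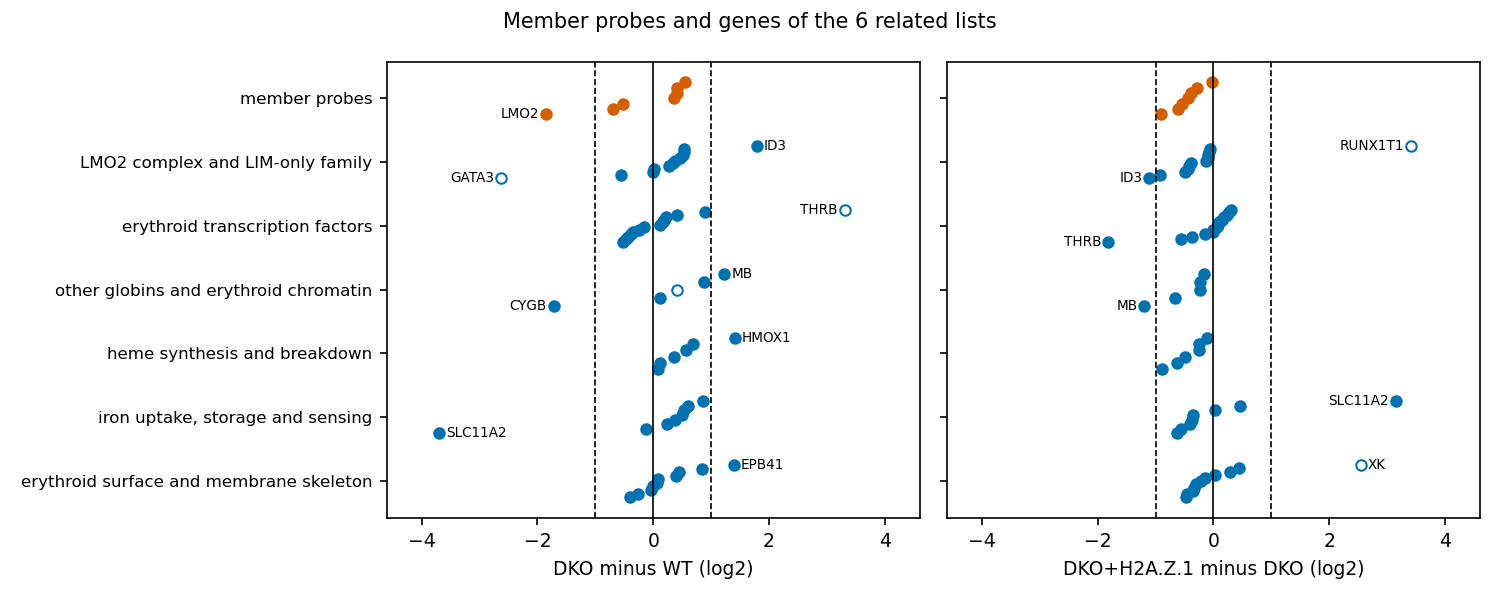
Log2 differences of DKO minus WT (left) and DKO+H2A.Z.1 minus DKO (right) for the 7 measured probes of the set and for each counted gene of the 6 lists. Dashed lines mark 2-fold and open marks were dim on 1 of the 2 arrays. LMO2, at -1.86, is the only probe of the set beyond a dashed line.

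The labelled cell type was checked on markers. Of 15 B cell marker genes with a probe, 14 were well above background on every array, and CD79B, a chain of the B cell receptor, read 6.53 to 6.86. Of 11 T cell marker genes, 8 were well above background on every array, while CD4 and IL7R were on none. CD3D, a T cell marker, was nearly as bright as CD79B, at 6.04 to 6.38 over the 5 arrays. Of 9 T cell markers counted between DKO and WT, 1 was higher in DKO by 2-fold or more, CD3E (13.7-fold, 3 of 3 probes). CD5 was lower (3.20-fold, 1 of 2 probes, and -0.80 with normexp), and 7 were neither. Of 10 myeloid marker genes, 6 were above background on every array. Between DKO and WT, 2 of 9 counted were lower in DKO by 2-fold or more and 7 were neither, with a median of -0.34. The lower ones were TLR4, at -3.33 in WT and -4.76 in DKO, and CD14, at -5.66 in WT and not well above background in DKO. With normexp these differences were -0.67 and -0.17. All 5 thrombocyte marker genes with a probe were well above background on every array, so such detection was not particular to the B cell list. Of these 5, 0 were 2-fold apart in DKO against WT. TUBB1 came nearest, at -0.95, and 1 of its 2 probes was lower by 2-fold or more. Beside the detection counts, 4110 of the 5382 named genes were well above background on every array. Beside the 2-fold counts, 4.2% of all genes were higher by 2-fold or more in DKO than in WT and 11.1% lower. The part of these markers in the LMO2 values was not tested.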

How the data were processed

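The deposited scanner files hold 43803 non-control spots per array. Version 11.5.1.1 of Agilent's Feature Extraction wrote them, per the file headers. The value used, the processed signal, is an intensity that the software had already corrected for background, per the file headers. The authors' deposited value table holds the same intensity times a constant of 1.03 to 1.23 per array, with medians of 92.1 to 121.7. That table is not on a log scale and not centred by gene. Its sign is that of the signal, and the sources used here do not give who chose the constants.

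From the processed signal, log2 was taken and the 75th percentile of non-control spots of each array was subtracted. Non-uniform and population outlier spots (2 to 37 per array) were left out and repeated spots averaged (median SD of repeats 0.0610 to 0.0747). A probe was counted in a comparison when it was well above background on 1 or both of its arrays. Where it was dim on 1, the fold is a bound ("at least"), the bright level against the higher of the dim probe's own level and the lowest level well above background on that array. Gene counts use the measured difference, so a bound can be under 2-fold. Names came from the RefSeq table of GRCg7b through the accession printed on the array (11935 probes, 5382 genes). No sequence was used, and positions in that table served only to order the genes around LMO2. Of 197 list names, 16 matched through an older symbol, which can stand for a relative (HFE gave BF1, BLNK gave SH2D6, ALAS2 gave ALAS1). Genes named are all members, up to 4 per list past 2-fold, and the 10 nearest to LMO2. LMO4, CBFA2T3, TCF3, TCF12, RUNX1, MYB, SPI1, HBAD, ALAS1, FECH, SLC4A1 and CD79B were named in addition after their values were seen. Members and lists were chosen with earlier results of these data known. Scripts ran in Python 3.11.15 and R 4.3.3 with limma 3.58.1 and were tested on simulated data. The number of arrays, 1 per line, limits the precision.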

Additional observations from a re-analysis of the deposited data

How the results depend on the processing

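The alternatives were the median of each array, quantile normalization, cyclic loess, spike-in probes, normexp with an offset of 50, the authors' value table and keeping marked spots, and, for counts, 2 other filters and thresholds of 1.5- and 3-fold. The count of 1 member probe in DKO against WT became 3 with spike-in probes, 2 without a filter and 2 at 1.5-fold. The count of 0 between DKO+H2A.Z.1 and DKO became 1 with the median of each array, 1 without a filter and 2 at 1.5-fold. The count of 2 between DKO+H2A.Z.1 and WT became 1 with normexp, 4 without a filter and 1 at 3-fold. The count of 1 between the mutant lines became 2 without a filter and 3 at 1.5-fold. The count of 2 for DKO+5KR-H2A.Z against DKO+H2A.Z.1 became 0 with normexp and 1 at 3-fold, and the count of 3 for DKO+H2A-H2A.Z against DKO+H2A.Z.1 became 1 with quantile normalization, 0 with normexp and 0 at 3-fold. LMO2 in DKO against WT was -2.36 with spike-in probes and -1.29 with normexp. LMO2 in DKO+H2A.Z.1 against DKO was 0.12 with spike-in probes and -0.20 in the authors' value table, and against WT it was -1.71 with normexp. Normexp turned the sign of XK in DKO+H2A.Z.1 against DKO (2.55, a bound of 1.53-fold, to -0.12) and, in DKO against WT, of CCR2 (0.069), SIGIRR (0.15), TOX3 (0.18), VEGFD (0.19) and the member probes of HBA1 (-0.52 to 0.079) and HBBA (-0.69 to 0.061). Keeping marked spots left the differences of the measured member probes as in the main setting. Of 434 values for single probes and genes under alternatives, 41 had another sign than the main value, 19 of them with spike-in probes and 8 with normexp. In 5 of the 41 the main difference was 2-fold or more. The cause was not tested. Signal close to background limits HBA1, HBBA, the LMO2 value of DKO+5KR-H2A.Z and the 5 dim probes. No paired analysis was possible because each line had 1 array.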

Other observations

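LDB2, the relative of the LMO2 adaptor LDB1, was above background in WT alone, on 1 of its 2 probes. A_87_P037945 read -5.82 in WT and between -9.33 and -9.09 in the 4 derived lines, where it was dim, while A_87_P053661 was dim on every array. This probe was singled out after its values were seen.

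The genes that shared the order of LMO2 over the 5 arrays, besides CYGB and PPP1R19L, included RAB24, a small GTPase, at 3.79 in WT, 2.69 in DKO, 2.67 in DKO+H2A.Z.1, 3.29 in DKO+H2A-H2A.Z, with 2.62 in DKO+5KR-H2A.Z. The 14 genes at least 2-fold below WT in all 4 derived lines included, with LMO2 and H2AFZ, DCX, a microtubule protein of young neurons, TLR3, a sensor of double-stranded RNA, MYO1F, a myosin of blood cells, and IL21R, a cytokine receptor. IL21R read -1.97 in WT and -3.98 to -2.98 in the derived lines. MYO1F read 2.41 in WT and 0.40 to 1.26 in the derived lines.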
